A study of Mus musculus with 7 samples.

Results

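The genes described here encode the proteins of the mitochondrial ribosome, taken as every gene whose array symbol starts with Mrpl (large subunit) or Mrps (small subunit). Each gene was read through a probe set that carries 1 symbol, and through the brightest such probe set where it had several. This gave 77 genes, 48 Mrpl and 29 Mrps, among 19938 genes measured in the same way. Mrpl53 was measured only by a probe set shared with Ccdc142 and was left out.

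Mitochondria carry ribosomes of their own, which make the few respiratory chain subunits that mitochondrial DNA still encodes. Their ribosomal RNAs come from mitochondrial DNA, whereas their proteins are encoded in the nucleus, made in the cytosol and imported. The small subunit reads the messenger, and the large subunit joins the amino acids and passes the growing chain to the inner membrane. Skeletal muscle fibres depend on this supply for respiratory complexes, and AMP-activated protein kinase (AMPK), switched on when cellular energy runs low, is known as a regulator of mitochondrial gene expression in muscle.

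The muscle studied was the extensor digitorum longus, which in mice consists mainly of fast fibres, and its RNA was read on 7 single-colour arrays from 4 wild type mice and 3 AMPKα1α2 double knockout mice. Both genotypes shared a mixed C57/Bl6 and SV129 background, and the double knockouts are labelled as lacking the catalytic subunits α1 and α2 of AMPK. The labels do not state whether the deletion was limited to muscle fibres, which part of each gene was removed, or the sex, age and activity of the mice. Each array stands for 1 mouse, since the design text gives its numbers in mice, and with so few arrays precision is limited. Values are on a log2 scale whose base was inferred from their range, and differences are knockout minus wild type with the standard error moderated by limma (±).

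The targeted genes were lower in the knockout arrays. Prkaa1, which encodes α1, read 9.54, 9.48, 9.61 and 9.53 in wild type replicates 1 to 4, against 9.09, 9.19 and 8.80 in knockout replicates 1 to 3, with no overlap. Prkaa2, which encodes α2, read 12.31, 12.03, 12.28 and 12.28 against 12.04, 11.95 and 12.04, so wild type replicate 2 lay among the knockout arrays. The differences were -0.51 ± 0.09 and -0.21 ± 0.07, with limma adjusted p = 0.12 and 0.39 after Benjamini-Hochberg correction. A probe set outside the deleted part of a gene would still detect its transcript, and where these probe sets lie was not known here.

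The fast fibre markers that define this muscle averaged 13.69 to 13.75 in the wild type arrays and 13.73 to 13.74 in the knockout arrays. The averages of several other marker lists moved with genotype. The 13 measured macrophage markers were all higher, averaging 8.21 to 8.46 in wild type and 8.90 to 9.07 in knockout, and the 10 endothelial markers were all lower, averaging 9.60 to 9.80 against 9.29 to 9.43. The 7 slow fibre markers averaged 8.50 to 8.72 against 8.79 to 9.33, with 6 differences above 0 and Myl2 at -0.24 ± 0.28. The 7 satellite cell and regeneration markers averaged 8.23 to 8.30 against 8.60 to 8.70. All 7 differences were above 0, but Pax7 and Myf5 were only at 0.04 ± 0.08 and 0.05 ± 0.04, where Ncam1 was at 1.01 ± 0.14. Lyz2 and Tyrobp of the macrophage list and Myh3 of the regeneration list had limma adjusted p values of 0.0088, 0.017 and 0.022. Over all genes, 4 were higher and 1 lower at a limma adjusted p under 0.05. The 16 immediate early genes averaged 8.50 to 8.83 against 8.66 to 10.44, the highest in knockout replicate 2. The part of all these markers in the values of the ribosomal protein genes was not tested. In whole muscle, fewer cells of a type and less RNA per cell cannot be told apart. Knockout replicate 3 had the highest array median, 7.58 against 7.50 to 7.55 in the other arrays, and limma gave it the lowest array weight, 0.294; the part of this in the results was not tested.

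Most mitochondrial ribosomal protein genes read slightly lower in the knockout muscles, and no single gene passed the corrected threshold. The difference was below 0 in 73 of 77 genes, against 53.3% of all genes. The median difference was -0.10, a 1.07-fold lower level, against -0.0049 over all genes, and the range ran from -0.32 for Mrpl16 to 0.04 for Mrpl52. The differences were small throughout: 10 genes were lower by over 0.2, 29 by 0.1 to 0.2 and 34 by under 0.1. At a limma adjusted p under 0.05, 0 of 77 genes were lower and 0 higher, where over all genes 0.00502% were lower and 0.0201% higher, and the smallest adjusted p of a mitochondrial ribosomal protein gene was 0.12. At an unadjusted limma p under 0.05, 23 of 77 (29.9%) were lower and 0 higher, against 6.69% lower and 3.93% higher of all genes. Nearly all of these genes are brighter than the typical gene, with 76 of 77 above the median level of all genes. Among the genes kept when dim probe sets were dropped, 11.1% were lower at that p, beside 20 of 76 mitochondrial ribosomal protein genes. On all genes the count of 23 was 13 without wild type replicate 2 and 15 without wild type replicate 3. In the same fits 5.82% and 4.35% of all genes were lower at that p. The mitochondrial ribosomal protein genes vary together between mice, so the counts are a description and were given no test.

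**Figure D1:**
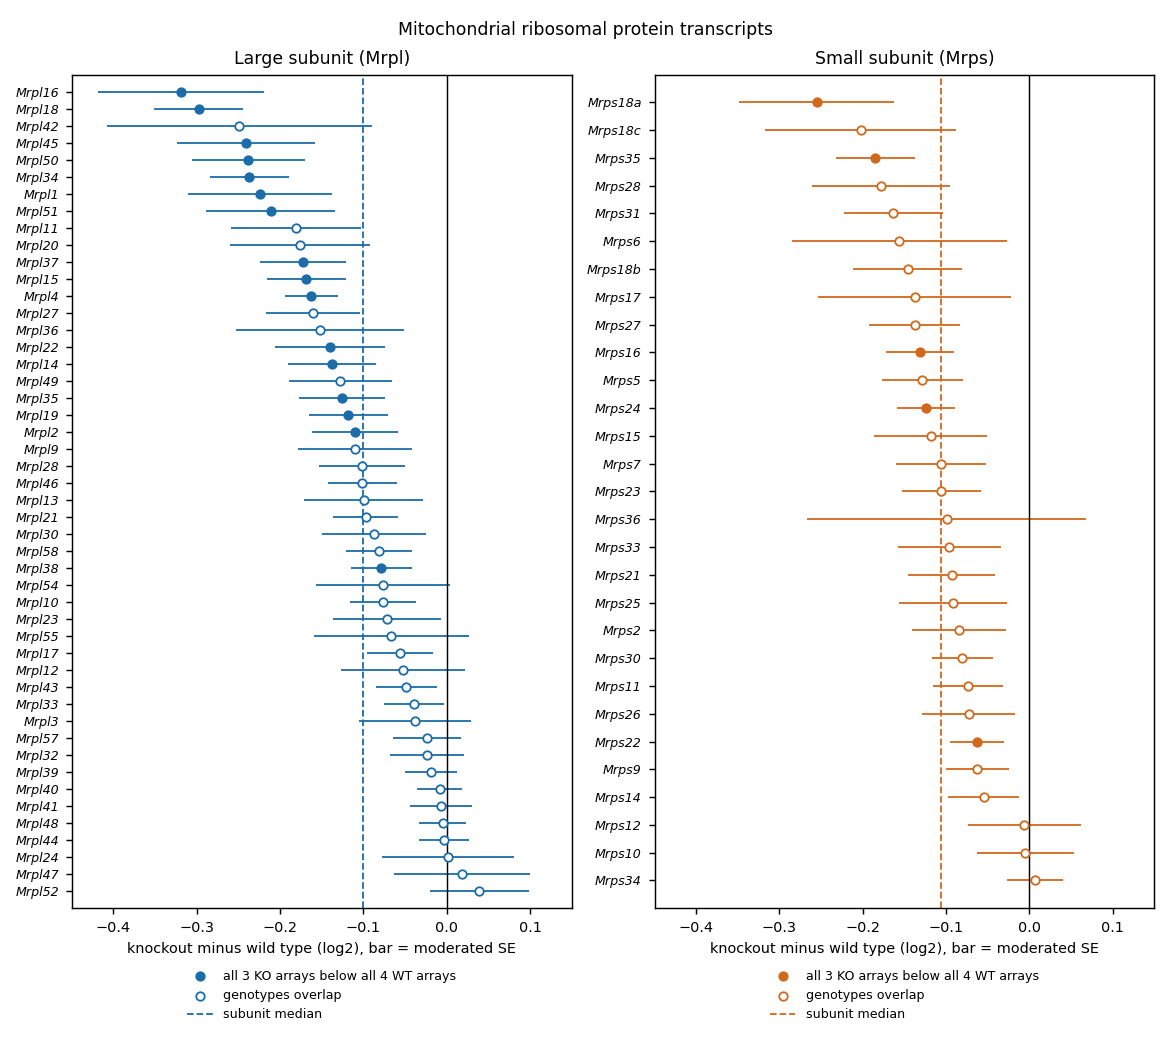
Difference between knockout and wild type (log2, x axis) for each of the 48 Mrpl and 29 Mrps genes, sorted by size, with bars for the moderated standard error. Filled points mark the 21 genes whose 3 knockout arrays all lay below the 4 wild type arrays; most points lie left of 0, and the dashed subunit medians stand at -0.10 and -0.11.

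In 21 of the 77 genes (27.3%) every knockout array lay below every wild type array, and in 0 genes above, where over all genes 5.33% lay fully below and 3.29% fully above. Another 28 genes had 2 knockout arrays below the lowest wild type array, 20 genes had 1, and 8 genes had 0. Without knockout replicate 1 the genes with no overlap numbered 37. Leaving out an array can only keep or raise this count, so 37 does not show how stable the count of 21 is. The 5.33% of all genes was counted on all 7 arrays, and no such share is given with an array left out.

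The knockout arrays differed among themselves. Relative to each gene's wild type mean, the median over the 77 genes was 0.01, -0.0004, -0.01 and -0.02 in wild type replicates 1 to 4 and -0.04, -0.09 and -0.16 in knockout replicates 1 to 3. All 3 knockout medians thus lay below the 4 wild type medians, with replicate 3 farthest below. Over all genes the same median lay at -0.01, -0.01 and 0.01 in the 3 knockout arrays. Replicate 3 held the lowest of the 3 knockout values in 50 genes, replicate 2 in 21 and replicate 1 in 6. The median difference was -0.07 without replicate 3 and -0.13 without replicate 1. In 38 of the 77 genes the difference shrank by over 1.5 times or changed sign without replicate 3, against 5 to 10 genes without any other array. Set against the median of all genes, the median difference was -0.05 without replicate 3, compared with -0.10 on all arrays. The spread between mice was wider in the knockout group for 57 genes, with a median SD of 0.084 (n = 3) against 0.060 in wild type (n = 4). This was not counted over all genes, so whether it is particular to these genes is not known.

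**Figure D2:**
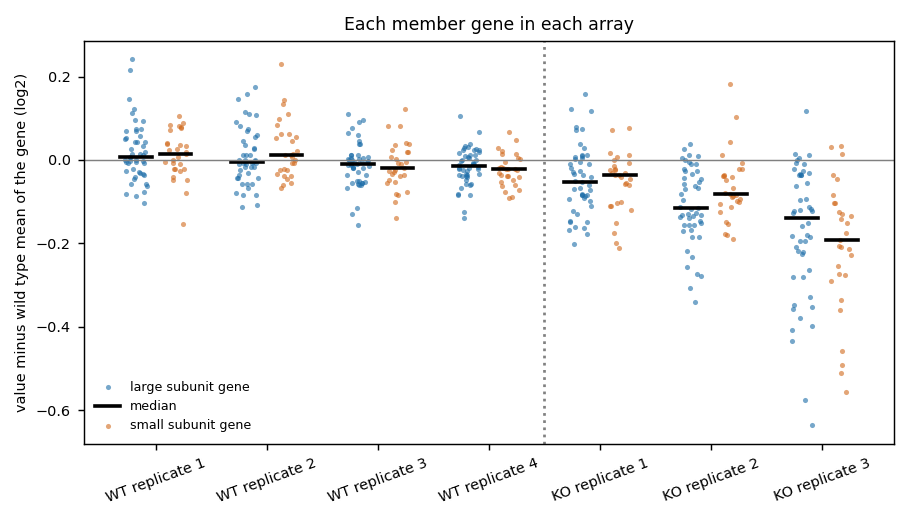
Each dot is 1 gene in 1 array, as its value minus that gene's wild type mean (log2, y axis), with large subunit genes in blue, small subunit genes in orange and black bars for the medians. Wild type medians lie near 0, and the knockout medians step down to -0.14 (large) and -0.19 (small) in replicate 3.

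The median differences of the large and the small subunit lay close together. The large subunit had 45 of 48 genes below 0 with a median of -0.10, and the small subunit 28 of 29 with a median of -0.11. At an unadjusted limma p under 0.05, 16 large (33.3%) and 7 small subunit genes (24.1%) were lower, and 16 and 5 genes had no overlap. The mean over the large minus the mean over the small subunit, each gene taken relative to its wild type mean, was 0.01, -0.02, 0.0024 and 0.01 in the wild type arrays and 0.01, -0.04 and 0.03 in the knockout arrays. The knockout values thus lay on both sides of the wild type values, and the 2 groups' means differed by -0.0009 with an SD of 0.012 in wild type (n = 4) and 0.040 in knockout (n = 3). Without knockout replicate 3 the small subunit median was -0.06 and the large -0.09. Placing Mrps30 and Mrps18a, which sit in the large subunit of the mammalian particle, with the large subunit and leaving out Mrps36 gave medians of -0.10 for 50 and -0.11 for 26 genes.

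Among large subunit genes, Mrpl18 had the smallest p. It encodes the counterpart of bacterial L18, a protein of the central protuberance at the top of the subunit. It read 10.59, 10.49, 10.47 and 10.44 in wild type, against 10.30, 10.16 and 10.14 in knockout mice. The highest knockout mouse was below the lowest wild type mouse, and the difference was -0.30 ± 0.05 (limma adjusted p = 0.12). Leaving out any 1 array left it between -0.35 and -0.27.

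Mrpl4, whose bacterial counterpart reaches into the tunnel through which the new chain leaves, had little spread between mice. Its wild type arrays read 10.05, 10.09, 10.05 and 10.05, and its knockout arrays 9.88, 9.94 and 9.86. The groups did not overlap, and the difference of -0.16 ± 0.03 came with a limma adjusted p of 0.14. Mrpl34, the counterpart of the small bacterial protein L34, read 11.02, 11.09, 11.17 and 11.13 against 10.94, 10.82 and 10.84. It was also lower in every knockout array, with a difference of -0.24 ± 0.05 (limma adjusted p = 0.15).

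The next large subunit genes by p were Mrpl15, Mrpl50 and Mrpl37. Mrpl15, the counterpart of bacterial L15, read 9.91, 9.91, 10.06 and 9.99 against 9.82, 9.83 and 9.75, a difference of -0.17 ± 0.05 (limma adjusted p = 0.30). Mrpl50 has no bacterial counterpart, and its 9.87, 9.95, 9.89 and 9.88 in wild type stood against 9.75, 9.74 and 9.49 in knockout. Knockout replicate 3 was well below the other arrays there, and the difference of -0.24 ± 0.07 became -0.15 without it. Mrpl37, another protein found only in mitochondrial ribosomes, read 11.09, 11.15, 11.06 and 11.15 against 11.02, 10.97 and 10.83, or -0.17 ± 0.05. In all of these genes the knockout values lay below the wild type values.

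Mrpl16 stood lowest of all 77, and was singled out after its values were seen. It encodes the counterpart of bacterial L16, which lies close to the transfer RNA sites. It read 9.80, 9.92, 9.81 and 9.85 in wild type, against 9.70, 9.61 and 9.27 in knockout mice. The groups did not overlap, but knockout replicate 3 lay apart, and the difference of -0.32 ± 0.10 ranged from -0.40 to -0.19 when 1 array was left out.

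The remaining large subunit genes at an unadjusted limma p under 0.05 were named after their values were seen. Mrpl45, a tunnel exit protein, read 9.50, 9.74, 9.58 and 9.50 against 9.49, 9.31 and 9.22, a difference of -0.24 ± 0.08. Mrpl1, the counterpart of a bacterial stalk protein, read 9.30, 9.39, 9.25 and 9.26 against 9.22, 9.14 and 8.86, a difference of -0.22 ± 0.09 that was -0.12 without knockout replicate 3. In both the groups stood apart, narrowly in knockout replicate 1 and widely in replicate 3. Mrpl14, Mrpl35 and Mrpl19, counterparts of bacterial proteins, did not overlap between genotypes at -0.14 ± 0.05, -0.13 ± 0.05 and -0.12 ± 0.05. Mrpl46 and Mrpl21 overlapped, at -0.10 ± 0.04 each, and Mrpl51 and Mrpl27 are given with their second probe sets further on.

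Size and overlap did not always go together. Mrpl42, without a bacterial counterpart, read 10.34, 10.06, 10.06 and 10.04 in wild type, against 10.13, 10.01 and 9.49 in knockout mice, and its difference of -0.25 ± 0.16 came with overlapping groups and was -0.06 without knockout replicate 3. Mrpl38, a central protuberance protein, read 9.97, 10.01, 9.96 and 9.97 against 9.94, 9.93 and 9.83, and its groups stood apart at a difference of -0.08 ± 0.04, or -0.04 without that replicate. Mrpl22 and Mrpl2 also stood apart, at -0.14 ± 0.07 and -0.11 ± 0.05, and each was at -0.06 without knockout replicate 2. At the other end, Mrpl39, Mrpl40 and Mrps10 lay at -0.02 ± 0.03, -0.01 ± 0.03 and -0.005 ± 0.06, with wild type and knockout values intermixed.

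In the small subunit, Mrps35, a protein without a bacterial counterpart, had the smallest p. Its wild type arrays read 8.50, 8.55, 8.54 and 8.43 and its knockout arrays 8.40, 8.32 and 8.26. The difference was -0.18 ± 0.05 (limma adjusted p = 0.26), and the groups did not overlap. Mrps24, the mitochondrial counterpart of bacterial S3 at the messenger entrance, read 10.39, 10.31, 10.36 and 10.36 against 10.18, 10.26 and 10.25, or -0.12 ± 0.03 (limma adjusted p = 0.30). Mrps16, in which human mutations cause a respiratory chain deficiency, read 9.98, 9.89, 9.89 and 10.01 against 9.82, 9.79 and 9.82. Its knockout arrays spanned a narrow range below all wild type arrays, and it was lower by 0.13 ± 0.04 (limma adjusted p = 0.34).

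By p, Mrps18a (given below with its relatives), Mrps31 and Mrps5 came next, and the latter pair overlapped between genotypes. Mrps31, found only in mitochondrial ribosomes, read 8.84, 8.93, 8.91 and 8.85 against 8.84, 8.70 and 8.61 (-0.16 ± 0.06, and -0.11 without knockout replicate 3). Mrps5, at the messenger entrance, read 9.68, 9.74, 9.58 and 9.64 against 9.55, 9.58 and 9.47 (-0.13 ± 0.05). Its second probe set gave -0.11 ± 0.06.

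The bacterial S18 protein has 3 mitochondrial relatives, which take different places in the ribosome. Mrps18a, the relative found in the large subunit, read 10.52, 10.56, 10.63 and 10.47 in wild type, against 10.39, 10.42 and 10.05 in knockout mice. It did not overlap, and its difference of -0.26 ± 0.09 was -0.14 without knockout replicate 3. Mrps18c, which takes the place of bacterial S18, read 9.38, 9.27, 9.31 and 9.27 against 9.24, 9.27 and 8.80, so that its -0.20 ± 0.11 shrank to -0.05 without replicate 3. Mrps18b, the third relative, read 10.46, 10.60, 10.58 and 10.52 against 10.44, 10.49 and 10.25, or -0.15 ± 0.07, and was at -0.07 without replicate 3. All 3 relatives were lowest in knockout replicate 3.

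**Figure D3:**
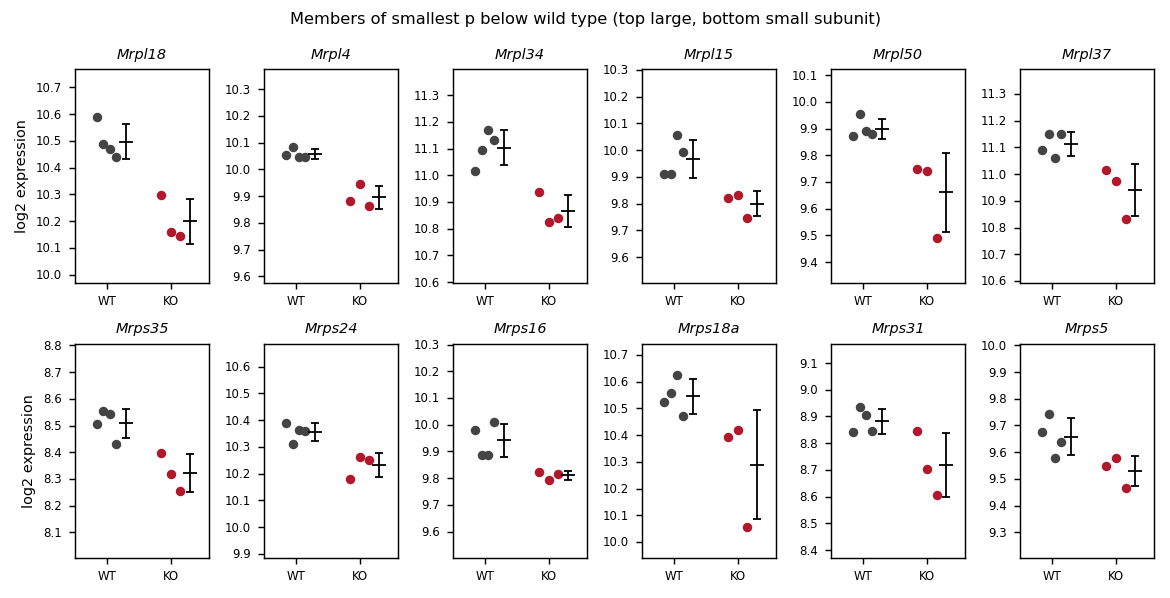
Log2 value of each array (dots, wild type in grey, knockout in red) with mean and SD for the 6 large and 6 small subunit genes of smallest p below wild type; each panel has its own y axis range, which does not start at 0. Of these 12 genes, 10 show no overlap between genotypes, and Mrps31 and Mrps5 do.

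Large subunit proteins with a listed role of their own differed by varying amounts. Mrpl12, a stalk protein that also binds the mitochondrial RNA polymerase, read 10.64, 10.75, 10.61 and 10.68 against 10.58, 10.48 and 10.79. Its highest value was in knockout replicate 3, the array in which most other genes were lowest, and the difference was -0.05 ± 0.07, or -0.14 without that array. Its stalk neighbours Mrpl11 and Mrpl10 were at -0.18 ± 0.08 (-0.11 without that array) and -0.08 ± 0.04. Mrpl58, a peptidyl-tRNA hydrolase built into the large subunit, was at -0.08 ± 0.04, and at -0.04 without knockout replicate 3. Mrpl44, which carries a ribonuclease fold and is mutated in a human cardiomyopathy, was at -0.0029 ± 0.03. Mrpl3, a protein near the site of peptide bond formation, was at -0.04 ± 0.07, and Mrpl41, also studied as a growth suppressor, at -0.01 ± 0.04.

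The small subunit proteins with known roles were spread in the same way. Mrps12, at the decoding site, read 7.84, 7.93, 7.68 and 7.84 against 7.89, 7.72 and 7.84, with full overlap (-0.01 ± 0.07). Mrps22, a human disease gene, read 9.25, 9.33, 9.24 and 9.27 against 9.22, 9.18 and 9.23, below wild type in each knockout array but by only 0.06 ± 0.03. Mrps27, a member of the pentatricopeptide repeat family of RNA-binding proteins, was at -0.14 ± 0.05, and Mrps30, which belongs to the large subunit by structure, at -0.08 ± 0.04. Mrps34, also a human disease gene, was at 0.01 ± 0.03. Mrps36, now known as a subunit of the 2-oxoglutarate dehydrogenase complex and not a ribosomal protein, read 9.39, 9.29, 9.29 and 9.28 against 9.39, 9.50 and 8.76. Its difference of -0.10 ± 0.17 became 0.13 without knockout replicate 3.

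Only 4 genes had a difference above 0, each by less than its standard error, and Mrpl24 and Mrps34 were below 0 after median centring of the arrays. Mrpl52, a mitochondrion-specific protein, was at 0.04 ± 0.06, Mrpl24, which lies at the tunnel exit, at 0.0016 ± 0.08, and Mrps34 as above. Mrpl47, also at the tunnel exit, gave 0.02 ± 0.08 by its brighter probe set and -0.31 ± 0.14 by its dimmer one. Of the 8 genes with a second probe set, Mrpl47 and Mrpl41 were the ones whose probe sets differed in sign. The second probe set of Mrpl41 was at 0.02 ± 0.03. The other 6 pairs went the same way, such as Mrpl27 with -0.16 ± 0.06 and -0.24 ± 0.08. Mrpl51 gave -0.21 ± 0.08 and -0.23 ± 0.12, the former being -0.12 without knockout replicate 3. Whether a probe set reads the gene itself or a related copy could not be told from the annotation used here, so genes with several probe sets carry this uncertainty.

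The values also showed many exact repeats between arrays. In 40 of the 77 genes (51.9%) at least 2 arrays held the same value, compared with 59.4% of all genes, and 8 of the 77 held 1 value on 4 or more arrays. Mrpl43 read 9.82 on all 4 wild type arrays, so its wild type SD was listed as 0. Limma's moderated errors draw on the spread of all genes as well as on that of the gene itself. The median standard error was 0.054 for these genes and 0.055 for all genes.

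Place in the particle and ancestry were compared after the values were seen, as descriptions. Genes with a bacterial counterpart had a median of -0.11 (46 genes, 14 lower at an unadjusted limma p under 0.05), and those without had -0.09 (31 genes, 9 lower). The 7 proteins of the central protuberance had a median of -0.08, which covered Mrpl18 at -0.30 and Mrpl48 at -0.0049. The 6 proteins around the tunnel exit had -0.06, from -0.24 for Mrpl45, which is thought to hold the ribosome to the inner membrane, to 0.02 for Mrpl47. The 3 stalk proteins had -0.08 and the 3 proteins of the messenger entrance and decoding site -0.12. No group was tested. Across the 77 genes, level and difference had a Pearson r of -0.21 and a Spearman rho of -0.21, as a description over genes that share the same 7 arrays.

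Promoters were read for the 68 genes with an entry in the RefSeq promoter table (build GRCm38.p6), each covering 250 bases before to 50 after a gene's start. The search covered this whole window and both strands for letters bound by factors that are known to act on nuclear genes of mitochondrial proteins. Shown are the 250 bases before the start of the genes of smallest p in each subunit that hold, in that stretch, the letters of NRF1 (GCGCNNGCGC, N being any base) or of ETS factors (CCGGAAG, or CTTCCGG on the other strand). Each is written 5′ to 3′ on the gene's strand with the match in capitals. Mrpl18 lies at chr17:12916092-12916341 on the minus strand, with ETS letters beginning 240 bases before the start. Mrpl45 lies at chr11:97315466-97315715 on the plus strand, with NRF1 letters beginning 120 and 38 bases before it. Mrps16 lies at chr14:20393491-20393740 on the minus strand, with ETS letters beginning 74 bases before it, and Mrps21 at chr3:95871515-95871764 on the minus strand, with NRF1 letters beginning 91 bases before it. Mrps21 also holds ETS letters in the 50 bases after its start, which are not printed.
Mrpl18: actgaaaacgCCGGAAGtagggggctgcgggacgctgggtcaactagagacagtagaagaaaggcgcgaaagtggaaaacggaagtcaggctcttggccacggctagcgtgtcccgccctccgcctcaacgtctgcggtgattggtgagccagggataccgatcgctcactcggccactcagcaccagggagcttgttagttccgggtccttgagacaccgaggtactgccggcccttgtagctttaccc
Mrpl45: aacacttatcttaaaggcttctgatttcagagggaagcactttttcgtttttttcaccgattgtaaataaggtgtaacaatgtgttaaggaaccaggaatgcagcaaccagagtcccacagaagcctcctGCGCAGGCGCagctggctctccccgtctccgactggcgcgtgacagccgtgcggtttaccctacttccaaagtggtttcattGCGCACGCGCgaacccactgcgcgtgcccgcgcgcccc
Mrps16: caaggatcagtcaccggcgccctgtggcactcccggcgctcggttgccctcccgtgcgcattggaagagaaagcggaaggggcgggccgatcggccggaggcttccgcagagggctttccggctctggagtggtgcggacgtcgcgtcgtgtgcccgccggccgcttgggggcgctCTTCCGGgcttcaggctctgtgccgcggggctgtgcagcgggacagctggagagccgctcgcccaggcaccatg
Mrps21: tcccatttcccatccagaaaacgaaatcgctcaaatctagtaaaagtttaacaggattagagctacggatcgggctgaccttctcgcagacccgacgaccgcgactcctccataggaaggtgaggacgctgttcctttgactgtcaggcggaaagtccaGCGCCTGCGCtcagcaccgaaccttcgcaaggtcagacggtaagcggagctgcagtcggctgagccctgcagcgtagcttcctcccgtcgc

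Over the whole window, the NRF1 letters were found in 14 of the 68 genes (20.6%), against 10.5% of 15614 genes with an entry, and the ETS letters in 25 (36.8%), against 13.6%. YY1 letters (AAGATGG) were in 13 genes (19.1%), against 7.28%. The TATA letters TATAAA were in 5 (7.35%), against 13.6%, and CCAAT in 26 (38.2%), against 41.7%. The windows of these genes and of all genes had a median GC content of 58.5% and 57.3%. By subunit, NRF1 letters were in 11 of 42 large and 3 of 26 small subunit genes, and ETS letters in 14 and 11. The sets overlap, since 4 genes, Mrps21 among them, held both in the whole window.

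The differences were then set beside these letters, with no test. Mitochondrial ribosomal protein genes with NRF1 letters had a median of -0.07 and those without -0.11. Over all genes with an entry the order was the other way, at -0.0213 with these letters and -0.0038 without. For ETS letters the medians of the mitochondrial ribosomal protein genes were -0.10 and -0.10, and for YY1 letters -0.13 with and -0.10 without. Mrpl18, with ETS letters, was at -0.30 and Mrps16 at -0.13, while Mrpl45, with NRF1 letters in 2 places, was at -0.24 ± 0.08 and Mrps21 at -0.09 ± 0.05 (-0.03 without knockout replicate 3). A match is a description of the letters and not evidence of binding.

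Some of these genes start close to a gene read in the opposite direction. Of the 68 with a promoter entry, 24 (35.3%) had such a neighbour starting within 1000 bases before them, against 9.56% of the 15614 genes with an entry, a comparison made after the values were seen. Mrpl46 and Mrps11 are such neighbours of each other and were at -0.10 ± 0.04 and -0.07 ± 0.04. The other 22 genes had neighbours outside the family, whose median was -0.01, where the 24 genes, Mrpl46 and Mrps11 included, had -0.10. Among these neighbours, 15 were below 0, and at an unadjusted limma p under 0.05, 1 was lower and 0 higher. Of all genes 53.3% were below 0, and 6.69% were lower and 3.93% higher at that p.

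Mrpl18 and Tcp1, a subunit of a cytosolic chaperonin, stood at -0.30 ± 0.05 and 0.09 ± 0.04. Mrpl37 at -0.17 ± 0.05 was paired with Cyb5rl at 0.01 ± 0.04, and Mrpl49 at -0.13 ± 0.06 (-0.08 without wild type replicate 2) was paired with Fau, which encodes a cytosolic ribosomal protein, at 0.04 ± 0.03. In other pairs the neighbour was the lower gene. Mrpl41 at -0.01 ± 0.04 was paired with Pnpla7, a lysophospholipase, at -0.30 ± 0.09, and Mrpl47 was paired with the respiratory chain gene Ndufb5 at -0.19 ± 0.08. Mrps27 and Ptcd2, which encodes another pentatricopeptide repeat protein, were both lower, at -0.14 ± 0.05 and -0.16 ± 0.08. The difference between a gene and its neighbour was not tested.

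**Figure D4:**
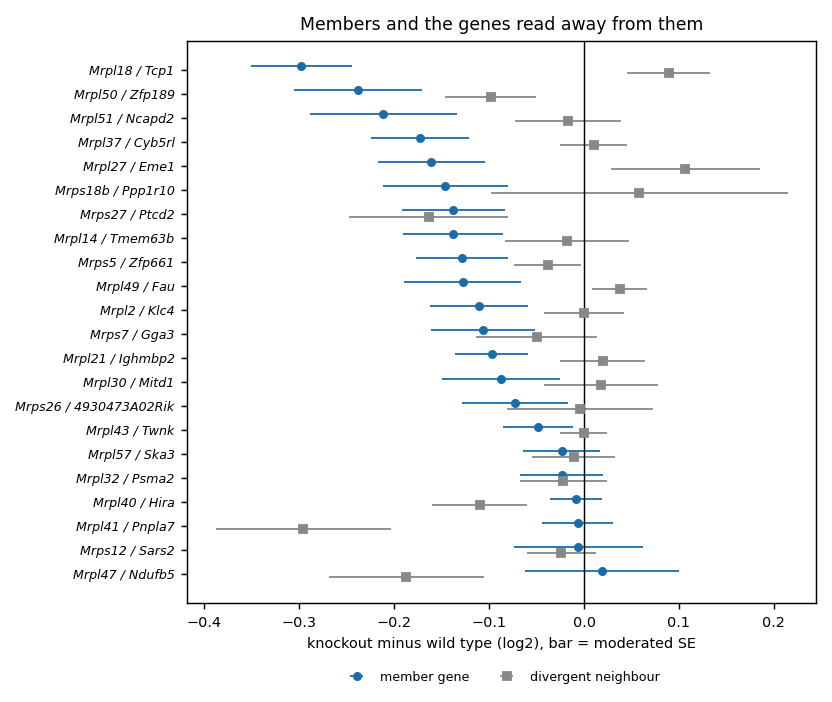
Difference between knockout and wild type (log2, x axis) with moderated standard errors for 22 mitochondrial ribosomal protein genes (blue circles) and the gene read away from each (grey squares), sorted by the former. The grey squares gather near 0, with a median of -0.01, while most blue circles lie to the left.

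Ribosomal proteins that carry other symbols, and the factors that build and serve the ribosome, were read beside these genes. Of the 6 other symbols listed, 4 were measured, and all were below 0 with a median of -0.12. Dap3, a GTP-binding small subunit protein, read 9.60, 9.43, 9.43 and 9.53 against 9.37, 9.40 and 9.24, or -0.16 ± 0.06 (limma adjusted p = 0.41). Gadd45gip1, near the tunnel exit, was at -0.08 ± 0.04. Chchd1 was at -0.18 ± 0.12 and -0.01 without knockout replicate 3. Ptcd3, at the messenger entrance, was at -0.05 ± 0.08 and 0.06 without that array.

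Of 21 measured assembly factors, 17 were below 0 with a median of -0.06, which was -0.03 without knockout replicate 3. The lowest p values belonged to Eral1, a chaperone of the small subunit RNA (-0.20 ± 0.07), Nsun4, an RNA methyltransferase (-0.15 ± 0.06), and Fastkd2, which binds the large subunit RNA (-0.23 ± 0.09, and -0.11 without knockout replicate 3). All 15 measured translation factors and activators were below 0, with a median of -0.11. Of these, Taco1, an activator of cytochrome oxidase translation, was at -0.27 ± 0.06, Gfm1, an elongation factor, at -0.29 ± 0.08, and Lrpprc, which stabilises mitochondrial messengers, at -0.19 ± 0.05. At an unadjusted limma p under 0.05, 3 of 21 and 6 of 15 were lower, and 0 were higher in either list. Of all genes 6.69% were lower and 3.93% higher.

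The nuclear subunits of the respiratory chain, which assemble with the products of this ribosome, had a median difference farther below 0. Of 66 genes, 64 were below 0 with a median of -0.17. At an unadjusted limma p under 0.05, 51 (77.3%) were lower, against 23 of 77 ribosomal protein genes and 6.69% of all genes. In 50 (75.8%) the genotypes did not overlap, against 5.33% of all genes. These subunits had a median level of 12.12, against 9.55 for the ribosomal protein genes and 7.72 for all genes. The part of level in these counts was not tested. Cox5a of cytochrome oxidase read 11.57, 11.67, 11.59 and 11.58 against 11.28, 11.32 and 11.26, or -0.31 ± 0.04 (limma adjusted p = 0.083). Atp5c1 of the ATP synthase was at -0.24 ± 0.03 and Ndufa8 of complex I at -0.29 ± 0.04. The medians of these subunits in the knockout arrays, relative to wild type, were -0.13, -0.16 and -0.19. Those of the ribosomal protein genes, -0.04, -0.09 and -0.16, were spread more widely. In the wild type arrays the order was reversed, with medians from -0.0337 to 0.033 for these subunits and from -0.0201 to 0.0075 for the ribosomal protein genes. No test of the difference between the lists was made.

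Genes of the cytosolic ribosome, the separate machine that serves the rest of the cell, were mostly above 0. Of 59 genes, 43 were above 0 and 16 below, with a median of 0.03, which moved to -0.0016 when knockout replicate 1 was left out and to 0.07 when replicate 3 was. At an unadjusted limma p under 0.05, 8 were higher and 2 lower, against 3.93% higher and 6.69% lower of all genes. The smallest p values belonged to Rpl29 (0.16 ± 0.04), Rpl19 (0.12 ± 0.04) and Rpl10 (0.09 ± 0.03). By array, their median relative to wild type was 0.10, 0.05 and -0.04 in knockout replicates 1 to 3. It thus stepped down in the same order of arrays as the mitochondrial ribosomal protein genes, and on both the lowest array was replicate 3. In these related lists 0 genes passed an adjusted limma p of 0.05.

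**Figure D5:**
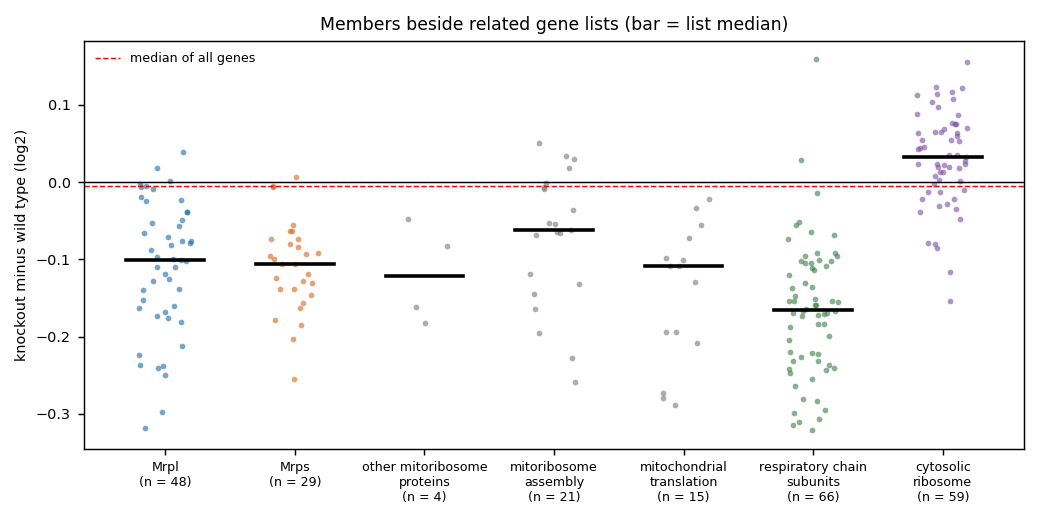
Difference between knockout and wild type (log2, y axis) for each gene (dots) of the Mrpl and Mrps genes and of 5 related lists, with black bars for list medians and a dashed red line for the median of all genes. The Mrpl and Mrps medians lie at -0.10 and -0.11, the respiratory chain at -0.17 and the cytosolic ribosome at 0.03.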

How the data were processed

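RNA from 7 muscles (1 array each) was labelled from 100 ng of total RNA, per the labels' protocols. The authors deposited 1 table of log2 expression values of 28856 probe sets, and the steps before deposit (background correction, normalization, summarization) were not given in the sources used here. Their base was inferred, since values reach 14.65, above the 11.09 that a 16-bit scanner allows on a natural log scale. If the arrays were scaled to each other, a shift common to every gene would be lost. Symbols came from the platform annotation, and all 77 genes matched RefSeq (GRCm38.p6) by gene identifier. Of the probe sets, 21789 had 1 symbol, 1621 several and 5446 none, and columns left unused numbered 0. Differences, errors and p came from limma 3.58.1 in R 4.3.3 over the 21789 probe sets with Benjamini-Hochberg adjustment, checked on simulated data. The simulated differences were larger than any of the 77 genes showed, with noise independent between genes. The check thus does not cover differences as small as theirs. A gene with several probe sets was read through the brightest. Members, lists and comparisons were chosen with earlier results of these data known.

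Named genes were, per subunit, the 6 of smallest p below and up to 3 above wild type, genes with listed roles, genes whose probe sets disagreed in sign, proteins with other symbols, and 3 per related list by p. Adipocyte, Schwann cell, lymphocyte and fibro-adipogenic markers had median differences of -0.10, 0.01, 0.04 and 0.30; of 7 erythroid markers only Alas2 was measured (-0.29 ± 0.45). Alternatives were array weights, quantile normalization, a replicate block, centring on array medians, means over probe sets, a trended robust prior, dropping dim probe sets, a threshold of 0.10, subunits by structure, and leaving out each array.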

Additional observations from a re-analysis of the deposited data

Results flagged for a closer look

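Within the 4 wild type arrays, 8 of 59 values tested had 1 array farther from the rest than Dixon's critical value allows. Chance marks about 1 in 20 such groups. Mrps27 read 8.8852 in wild type replicate 2, above 8.7499 to 8.7676 in the others, and Mrps36 read 9.3922 in replicate 1, above 9.2818 to 9.2889. Mrpl44 read 8.3112 in replicate 1 where the others all read 8.3107, and Chchd1 read 9.9211 in replicate 1 where the others all read 9.8601, so that in both the gap rests on repeated values. Ptcd3 was low in replicate 2 (9.4485), Fastkd2 in replicate 4 (8.4333) and Rpl10 in replicate 3 (12.8168). Mrps27 (8.7499), Mrps36 (9.2889) and Ptcd3 (9.479) also held a repeated value among their other wild type arrays. The rate of 1 in 20 does not allow for such repeats. Prkaa2 was low in replicate 2, at 12.0276 against 12.2804 to 12.305 in the other wild type arrays.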

How the results depend on the processing

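No mitochondrial ribosomal protein gene passed an adjusted limma p of 0.05 under any alternative, and the smallest adjusted p ranged from 0.077 to 0.33. The median difference stayed below 0, from -0.13 to -0.07, with 68 to 76 genes below 0. The labels do not state whether equal replicate numbers mark paired mice. Same-number correlations were 0.29, 0.16 and -0.20, and different-number ones ran from -0.26 to 0.2, which does not settle it. With the number as a block, which leaves wild type replicate 4 without a partner, 12 genes were lower at an unadjusted p under 0.05. Of all genes 5.1% were lower in that fit. Leaving out 1 array gave 13 to 27 mitochondrial ribosomal protein genes lower at that p, against 4.14% to 8.5% of all genes. The assembly factor median was then -0.0762 to -0.028. Genes without overlap then numbered 22 to 37, a count that leaving out an array can only keep or raise. The matching share of all genes is not given here. The large minus small mean ran from -0.02 to 0.02 over the alternatives. Several genes changed sign. With the block Mrpl47 was at -0.0012, Mrpl24 at -0.0399 and Mrps34 at -0.0111. With median centring Mrpl24 was at -0.0152 and Mrps34 at -0.0101. With array weights Mrps36 was at 0.0589, and with probe set means Mrpl47 was at -0.1442 and Mrpl41 at 0.0062. Leaving out 1 array put Mrpl41 between -0.0258 and 0.0209, Mrps12 between -0.0524 and 0.0434, Mrpl47 between -0.0335 and 0.0767, Mrpl24 between -0.0768 and 0.063, Mrps34 between -0.0111 and 0.0211, Mrpl52 between -0.0003 and 0.0762, Mrpl12 between -0.1381 and 0.013, Mrpl44 between -0.0233 and 0.0188, Mrpl3 between -0.0929 and 0.033, and Mrps36 between -0.2401 and 0.1294. Mrps17, at -0.14 on all arrays, ran from -0.2283 to 0.0217 with 1 array left out, the latter without knockout replicate 3. Mrpl55 ran from -0.1183 to 0.0143, and Mrpl32, Mrpl39, Mrpl40, Mrpl48 and Mrps10 also changed sign. The cause of these changes was not tested. Quantile normalization and the filter on dim probe sets each left 20 genes lower at an unadjusted p under 0.05, and array weights 23. Of all genes in each fit, 7.1%, 11.1% and 8.24% were lower at that p. At a threshold of 0.10 on the adjusted p, 0 mitochondrial ribosomal protein genes passed in the reported fit, where 72 of all genes did. Mrpl18 was at 0.085 when dim probe sets were dropped.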
